A study of Mus musculus with 4 samples.

Results

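The genes described here are 8 genes of alternative macrophage activation, Arg1, Ccl24, Mmp12, Ccl17, Chil3, Chil4, Retnla and Mrc1. They were chosen by their symbols among the 31053 genes in the files, with earlier results of these data known, so their levels are given as a description. The study asked what the absence of Ift20, a gene of intraflagellar transport, from T cells does to the allergic lung.

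All mice were C57BL/6 and carried the Ift20 f/f alleles, without a Cre in WT and with CD4 cre in KO. The CD4 promoter drives Cre in developing T cells, so the macrophages and dendritic cells (DCs) of the KO mice were not the cells targeted. Papain, a cysteine protease used as an inhaled allergen, was given into the nose at 25 µg on 3 days in a row and again on day 14, and the lungs were taken on day 15, whereas control mice received DPBS, a buffered saline. CD45.2+ immune cells made 1 10x Genomics 3′ single-cell library for each of the 4 groups, called DPBS WT, Papain WT, DPBS KO and Papain KO. The mice were 5 to 10 weeks old, and the number of mice in a library is not given in the sources used here.

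With 1 library per group no difference below has a replicate check, no test was run, and the mouse, the library and the condition cannot be told apart. Intervals are 95% intervals and cover counting error only. Levels are CPM, the UMIs (unique molecular identifiers) of a gene per 1000000 UMIs of a class of cells in 1 library.

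Alternative activation is the state that macrophages take on when interleukin-4 (IL-4) or IL-13 binds a receptor with the Il4ra chain and the transcription factor Stat6 is phosphorylated. It is known from allergic airway disease and worm infection, where group 2 innate lymphoid cells (ILC2) and T helper 2 cells make these cytokines. Chil3 and Mrc1 are also made by resting alveolar macrophages, the phagocytes of the air space.

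The libraries held 5863 to 8552 barcodes and 53854420 to 75675956 UMIs, and 5433 to 7587 cells per library were kept. Any pair of libraries shared 7 to 16 barcodes, none of which was an alveolar macrophage-like cell in both. Ift20 in T-like cells measured 52.1 and 47.6 CPM in the WT libraries against 20.2 and 18.4 CPM in the KO libraries, and in alveolar macrophage-like cells it lay between 56.0 and 65.1 CPM. Clusters that could not be named by their markers held 14.9% to 22.0% of the cells of a library.

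Alveolar macrophage-like cells numbered 1389 in DPBS WT and 1180 in DPBS KO, then 860 in WT and 506 in KO after papain, with a median of 17043 to 19419.5 UMIs per cell. All 13 of their markers were detected in each library, at a summed 10170.6 to 10811.6 CPM. The marker Siglecf was detected in 89.8% and 86.5% of the WT and KO cells after DPBS and in 70.8% and 83.0% after papain. The 12 interstitial macrophage markers together measured 68.7 CPM in DPBS WT and 57.1 in DPBS KO, then 355 in WT and 124 in KO after papain, so they moved in the same direction as several of the genes below, and their part in those values was not tested. C1qa was detected in 0.2% to 1.2% of these cells. The largest sub-cluster was led by Klf2 in DPBS WT and by Abca1 in the other libraries.

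Promoters of 6 of the 8 genes were matched in RefSeq (GRCm38.p6). Stat6 binds palindromes of TTC and GAA set 4 bases apart, and other Stat factors prefer a spacing of 3 bases. Both forms read the same on either strand, and the bases between may be of any kind. The 250 bases before the start of Ccl17 and Chil3 are shown because these genes had the highest ratio and the highest level in alveolar macrophage-like cells. Capitals mark the palindromes. The Ccl17 window lies at chr8:94810203-94810452 on the plus strand, and the Chil3 window at chr3:106167565-106167814 on the minus strand.
Ccl17: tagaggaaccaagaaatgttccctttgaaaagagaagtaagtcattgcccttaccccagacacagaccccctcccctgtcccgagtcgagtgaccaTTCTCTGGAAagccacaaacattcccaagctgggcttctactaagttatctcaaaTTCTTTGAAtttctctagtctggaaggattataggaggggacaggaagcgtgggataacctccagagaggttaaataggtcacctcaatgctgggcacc
Chil3: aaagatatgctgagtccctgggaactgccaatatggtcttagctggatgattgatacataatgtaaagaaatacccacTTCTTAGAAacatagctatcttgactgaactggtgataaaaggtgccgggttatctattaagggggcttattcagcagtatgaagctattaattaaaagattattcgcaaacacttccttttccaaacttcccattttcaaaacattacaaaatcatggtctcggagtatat

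Ccl17 held TTCTCTGGAA from position -154, counted from the start site, and a second palindrome with the shorter spacing. Retnla held TTCACAAGAA from position -145. Chil3 and its neighbour Chil4 held the same TTCTTAGAA, from positions -172 and -200, and the promoters of this pair were 91.0% identical over their aligned bases. The windows of Mrc1 and Mmp12 held neither palindrome. Of 32851 mouse promoters of the same length, 5.85% held the 4-base spacing and 7.02% the 3-base spacing, against 2 and 3 of the 6 promoters here. These letters are a description of the windows only.

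In alveolar macrophage-like cells after papain, 7 of the 8 genes were 2-fold or more higher in WT and the same count was 2-fold or more lower in Papain KO than in Papain WT. Both comparisons use the Papain WT library. The exception in both was Mrc1, which was level in the 4 libraries. Without the 1% of cells with the most UMIs of a gene in each library, the count was 4 in both comparisons, because Ccl24, Chil4 and Retnla fell below the 20 UMIs asked of a pair of libraries. In Papain WT those cells held 89.2% of the Ccl24 and 79.7% of the Retnla UMIs. Without them the log2 ratio for papain in WT was at least 2.06 for Ccl24 and 3.17 for Retnla. That for KO over WT after papain was at most -0.66 for Ccl24, a bound against 3 UMIs, and -3.34 for Retnla. The plot of levels by cell class shows each gene in each class.

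**Figure D1:**
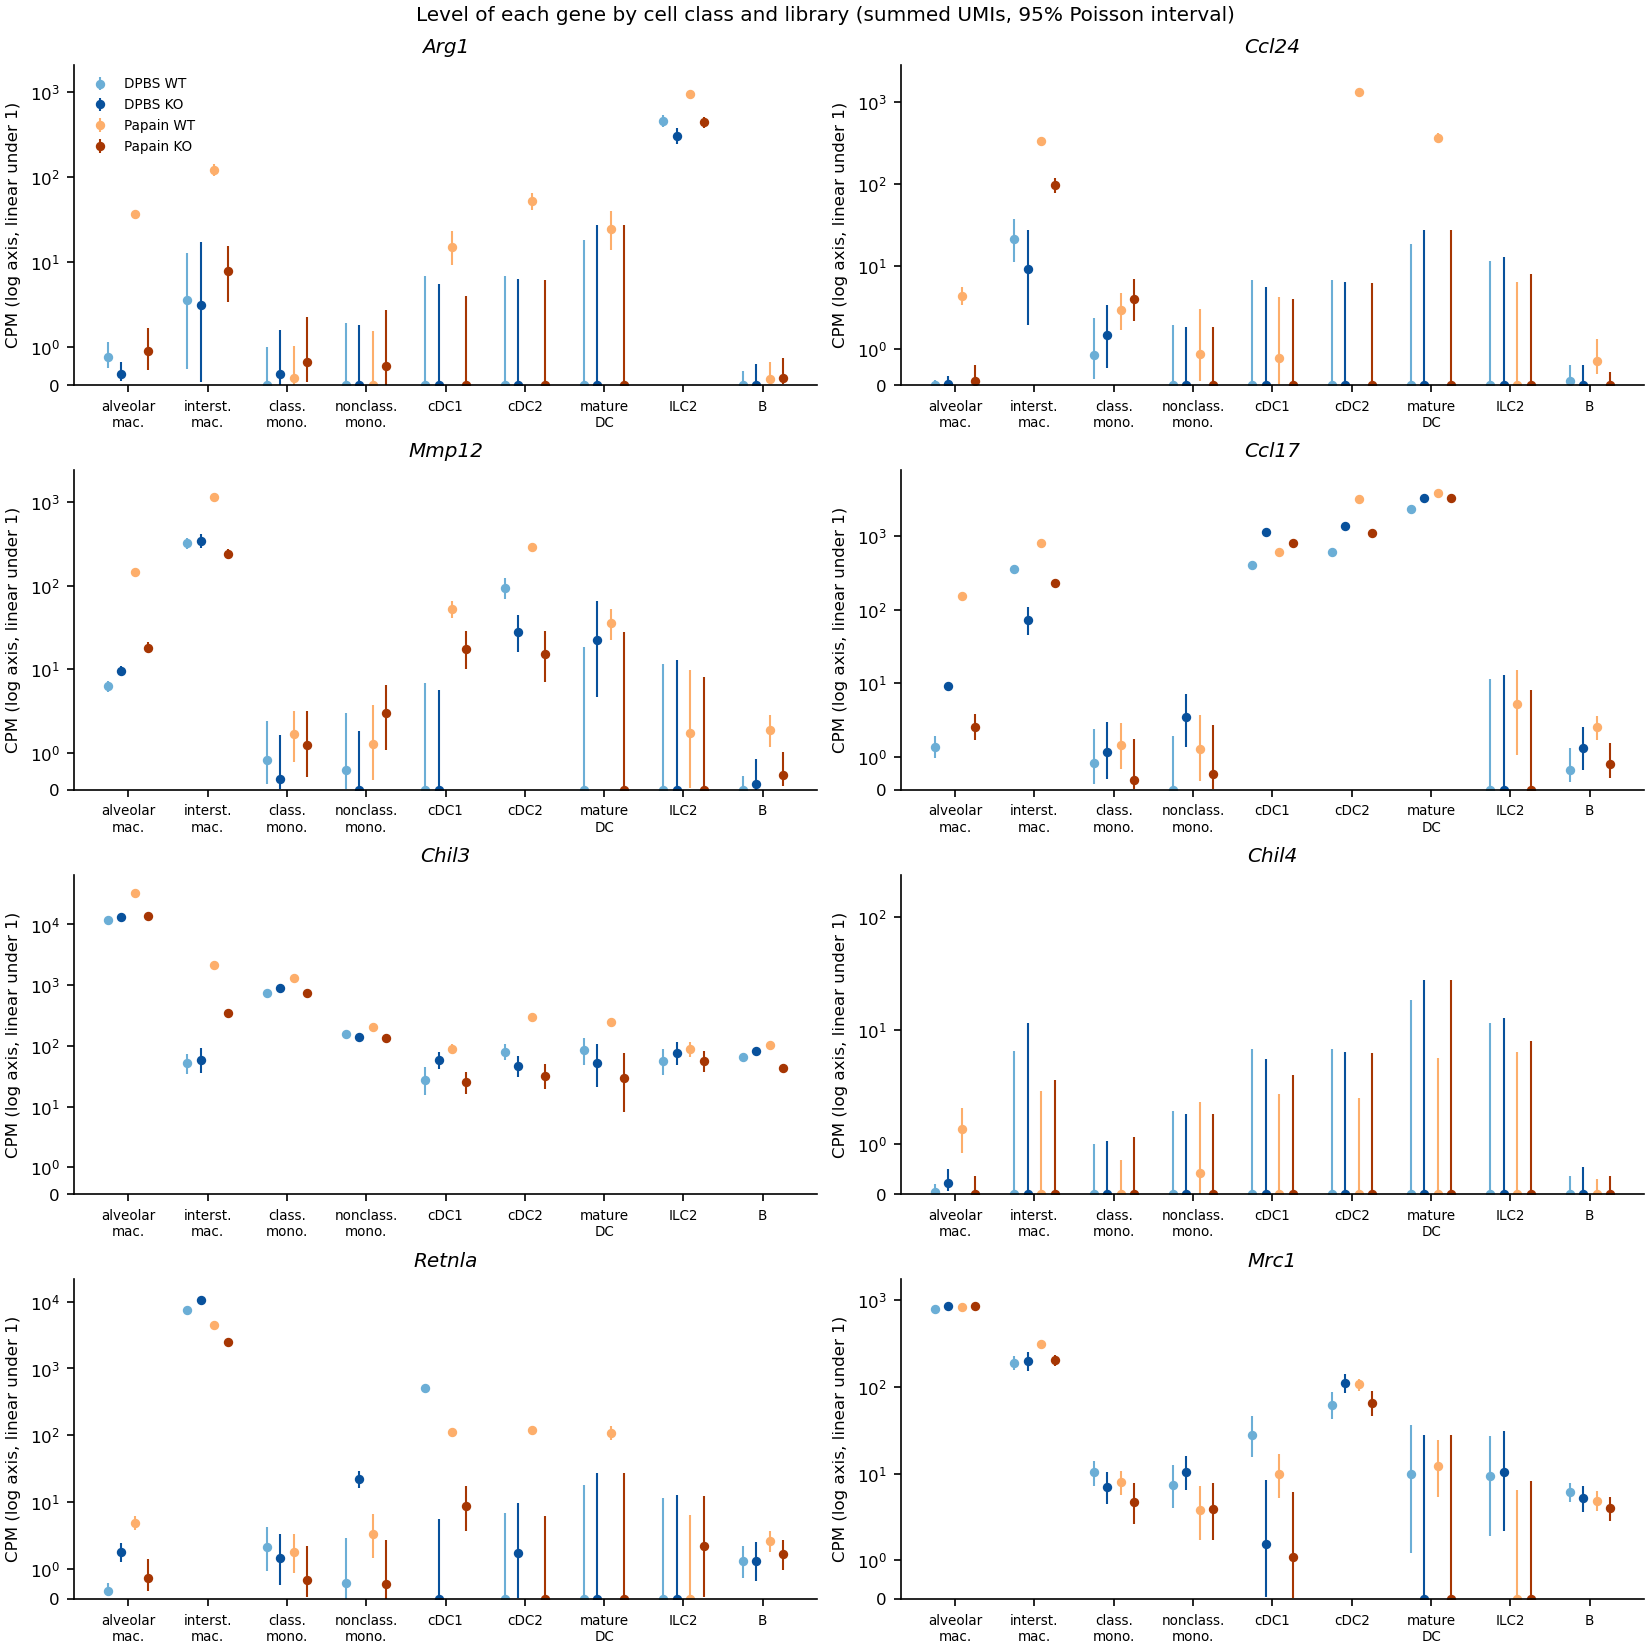
Level of each of the 8 genes (CPM, log axis that is linear under 1) in 9 cell classes (x axis) and 4 libraries (colours), with 95% Poisson intervals for counting error. Points at 0 are classes with no UMI, and B-like cells are shown as a rough guide to free RNA. Papain WT (light orange) stands above the other libraries in the alveolar macrophage-like column for every gene but Mrc1.

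Arg1, the arginase that turns arginine into ornithine and urea (chr10:24915221-24927484, GRCm38, minus strand), was close to the detection limit in alveolar macrophage-like cells of 3 libraries. It had 20 UMIs in DPBS WT and 7 in DPBS KO, then 555 in WT and 9 in KO after papain, or 0.75, 0.30, 37.2 and 0.89 CPM. Papain WT thus stood alone, with a log2 ratio to DPBS WT of 5.64 (interval 4.99 to 6.36). Papain KO was lower than Papain WT by a log2 ratio of -5.38 (interval -6.52 to -4.45). A single cell gave 26.3% of the Papain WT UMIs. Without the 1% of cells with the most Arg1 in each library the log2 ratio of papain to DPBS in WT was 6.87. That cut also took most of the 20 UMIs of DPBS WT, so this ratio rests on few counts there. Arg1 was detected in 9.42% of the Papain WT cells and in 0.59% to 1.58% of those in the other libraries, while 0 to 0.12% of B-like cells held an Arg1 UMI.

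Mmp12, the macrophage elastase that cleaves elastin in the lung matrix (chr9:7344381-7369499, plus strand), was measured at 6.28 CPM in DPBS WT and 9.64 in DPBS KO, then 147 in WT and 18.1 in KO after papain. Papain WT was again the highest, and Papain KO came next. The log2 ratio of papain to DPBS was 4.55 in WT (interval 4.32 to 4.79) and 0.91 in KO (interval 0.62 to 1.20). In Papain KO 1 cell gave 30.1% of the Mmp12 UMIs, and without the top 1% of cells the KO ratio was 0.03. Over the alternative ways of processing, the KO ratio ran from -0.60 to 1.41. B-like cells had 0 to 1.84 CPM.

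Ccl17, a chemokine that draws cells with the receptor Ccr4 such as T helper 2 cells (chr8:94810453-94812036, plus strand), had 37 UMIs in DPBS WT and 211 in DPBS KO, then 2315 in WT and 26 in KO after papain. In CPM these were 1.38, 9.08, 155 and 2.58, against 0.60 to 2.52 in B-like cells. Its log2 ratio of papain to DPBS in WT, 6.81 (interval 6.34 to 7.32), was the highest of the genes detected in both libraries, and for Ccl24, with no UMI in DPBS WT, the data give only a lower bound. In KO the ratio was -1.82 (interval -2.47 to -1.23), but it rested on the DPBS KO library, where 1 cell held 61 Ccl17 UMIs, or 28.9% of the total. Without the top 1% of cells the KO ratio was -0.41, and with no doublets removed it was 0.39. Ccl17 in DPBS KO was above DPBS WT by a log2 ratio of 2.71 (interval 2.20 to 3.26).

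Ccl24, or eotaxin-2, a chemokine for eosinophils through Ccr3 (chr5:135569937-135573049, minus strand), was nearly absent from alveolar macrophage-like cells. It had 0 UMIs in DPBS WT and 1 in DPBS KO, then 65 in WT and 1 in KO after papain. Against a floor of 3 UMIs in DPBS WT, papain was at least 38.8-fold higher in WT. This bound, like the others given here as at least or at most, leaves out the counting error of the other library. Of the 65 UMIs, 50.8% came from 1 cell, and 16 cells held any. Only 1.49% of the Ccl24 UMIs of all kept cells lay in this class.

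Chil3, a chitinase-like protein that binds sugars without cutting them and is known as Ym1 (chr3:106147554-106167564, minus strand), was the most abundant of the 8 genes. It measured 12060.2 CPM in DPBS WT and 13466.6 in DPBS KO, then 33177.8 in WT and 13861.7 in KO after papain. Papain WT was 2.75-fold above DPBS WT, whereas the other 3 libraries lay within a narrow range. The log2 ratio of papain to DPBS was 1.46 in WT and 0.04 in KO, and KO over WT after papain was -1.26. Alveolar macrophage-like cells held 87.3% of the Chil3 UMIs of all kept cells.

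Chil4, known as Ym2 (chr3:106201490-106219507, minus strand), is the neighbouring copy, and the transcripts of the pair were 94.4% identical over their aligned bases. None of the 311 windows of 90 bases in the last 400 bases of Chil4 was found in Chil3, but reads that cannot be split between the copies may still be lost. Chil4 had 1 UMI in DPBS WT and 5 in DPBS KO, then 20 in WT and 0 in KO after papain. The log2 ratio of papain to DPBS in WT, 5.16, has an interval from 2.52 to 10.54, and in Papain KO Chil4 was at least 4.51-fold lower than in Papain WT.

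Retnla, a secreted resistin-like protein known as Relm-alpha or Fizz1 (chr16:48842551-48844461, plus strand), was scarcely present in alveolar macrophage-like cells. It had 7 UMIs in DPBS WT and 42 in DPBS KO, then 74 in WT and 7 in KO after papain, or 0.26, 1.81, 4.96 and 0.69 CPM. B-like cells had 1.31, 1.34, 2.68 and 1.69 CPM in the same order, so in DPBS WT and Papain KO the CPM was below that of B-like cells. The CPM of B-like cells depends on their own depth, so it cannot set the level of free RNA in macrophage-like cells. In Papain WT 1 cell gave 48.6% of the UMIs. With 7 UMIs in each, Retnla is not read as expressed by these cells in DPBS WT or Papain KO. Its log2 ratio of papain to DPBS in WT was 4.24 (interval 3.13 to 5.61).

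Mrc1, the mannose receptor CD206 (chr2:14229392-14332057, plus strand), measured 782 CPM in DPBS WT and 844 in DPBS KO, then 822 in WT and 848 in KO after papain. These levels differed less than those of any other of the 8 genes, with log2 ratios between 0.01 and 0.11 in the 4 comparisons. Of the Mrc1 UMIs of all kept cells, 91.3% lay in alveolar macrophage-like cells, and it was detected in 97.3% to 99.9% of them.

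**Figure D2:**
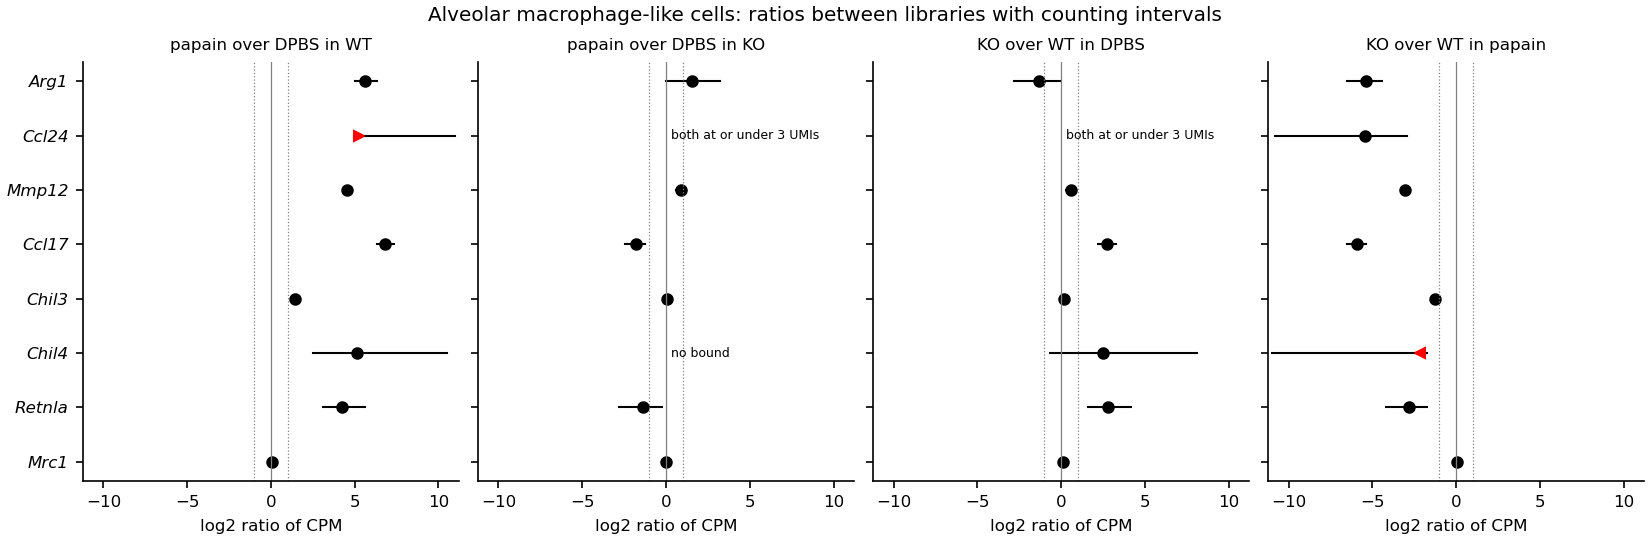
Log2 ratio of CPM (x axis) of each of the 8 genes in alveolar macrophage-like cells for 4 comparisons (panels), with 95% counting intervals that are cut at the edge of the axis. Dotted lines mark a 2-fold difference and red triangles mark bounds against 0 UMIs, and 7 of the 8 genes lie right of the lines in the first panel and left of them in the last.

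The 8 genes were read against all genes with at least 20 UMIs over both libraries of a comparison. For papain over DPBS in WT, 7 of the 8 were higher by 2-fold or more against 3.21% of 11804 genes, and 0 were lower against 1.51%. The median log2 ratio of the 8 was 4.86, against -0.05 over all genes. For papain over DPBS in KO, 5 of the 8 had enough UMIs, of which 0 were higher against 1.65% of 11532 genes, and 2, Ccl17 and Retnla, were lower against 1.43%. For KO over WT in DPBS, 6 had enough UMIs, of which Ccl17 and Retnla were higher against 0.855% of 11934 genes and Arg1 was lower against 0.897%. For KO over WT in papain, 0 of the 8 were higher against 1.15% of 11292 genes, and 7 were lower against 2.63%. The genes were chosen with these comparisons in view, so nothing is read from the gap to the background.

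The higher Chil3 level of Papain WT was not spread evenly over its alveolar macrophage-like cells. Per cell, the median Chil3 level was 11868.7 CPM in DPBS WT and 11405.3 in DPBS KO, then 19439.5 in WT and 13491.9 in KO after papain. The 10th percentiles were 7599.2 CPM in DPBS WT and 9757.9 in Papain WT, while the 90th percentiles were 17158.9 and 77689.5 CPM, so the Papain WT cells spread far upward. Of the Papain WT cells, 38.4% (interval 35.1% to 41.7%) lay above the 99th percentile of DPBS WT, 24899.5 CPM. In Papain KO 2.57% (interval 1.37% to 4.35%) and in DPBS KO 3.31% (interval 2.36% to 4.49%) did so. Mrc1 showed no such upper group.

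**Figure D3:**
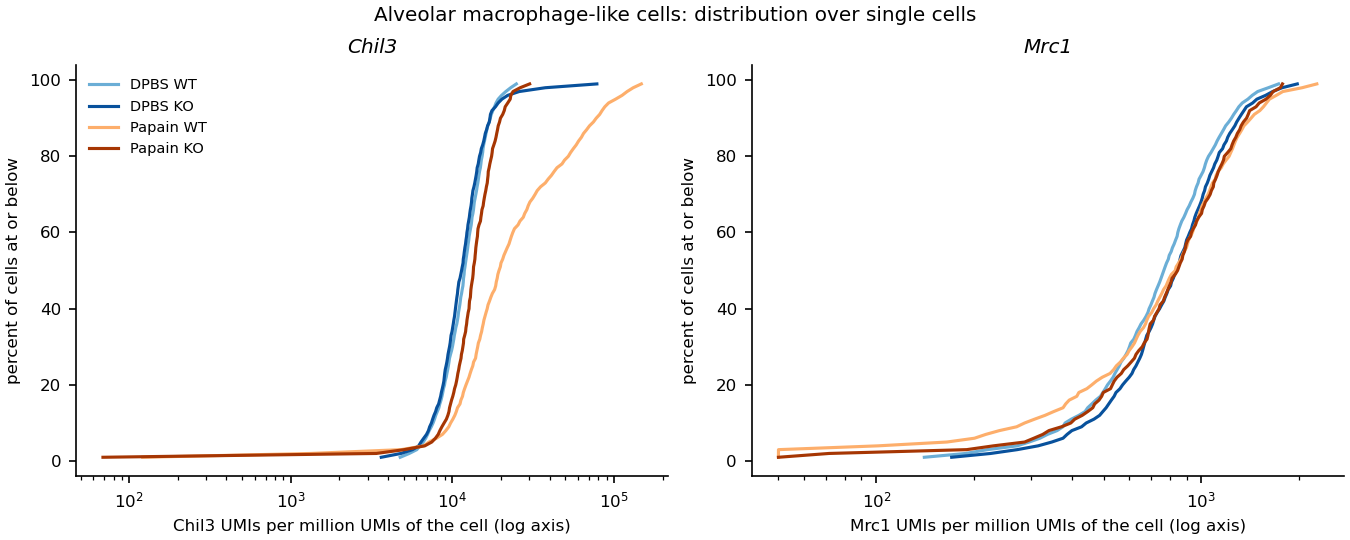
Share of alveolar macrophage-like cells (y axis, percent) at or below a per-cell level of Chil3 (left) or Mrc1 (right; x axes, CPM of the cell, log scale, values below 50 drawn at 50) in 4 libraries. The Papain WT curve of Chil3 runs to the right of the other 3 above its lowest values, with a median of 19439.5 against 11405.3 to 13491.9 CPM, and the 4 Mrc1 curves lie close together.

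To compare cells at equal depth, each cell was thinned to 2000 UMIs. The Papain WT cells were then put into 3 equal groups by their thinned Chil3 count. Arg1 was detected in 1.05% of the cells with the least Chil3, 0.35% of the middle group and 9.44% of those with the most (interval 6.31% to 13.4%). Ccl17 was detected in 2.09%, 0.35% and 15.0% of these groups, and Mmp12 in 4.53%, 2.45% and 16.4%. Mrc1 was in 70.4%, 74.5% and 79.7%. The cells with the most Chil3 thus held most of the cells with Arg1, Ccl17 and Mmp12, at median depths of 16469.5 to 17404 UMIs before thinning. In DPBS WT, DPBS KO and Papain KO no such group passed 0.60% for Arg1, 1.27% for Ccl17 or 3.55% for Mmp12.

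Of the 28 pairs of genes, 3 were frequent enough in every library for their joint detection in alveolar macrophage-like cells to be compared with the product of their shares. All 3 include Chil3 or Mrc1, which at 2000 UMIs were detected in 98.4% to 100% and in 74.9% to 79.6% of the cells, so that their joint detection could not reach 1.5 times the product and these 3 say nothing of pairing. Mmp12 and Chil3 were at 0.81 to 1.00 times the product, Mmp12 and Mrc1 at 0.69 to 1.14 times, and Chil3 and Mrc1, which nearly all cells hold, at 1.00 to 1.01 times. In Papain WT, Mmp12 and Ccl17 were both detected in 21 cells against 3.90 by the product, or 5.38 times, and Arg1 and Ccl17 in 5 cells against 1.80. When the product was taken within sub-clusters, the ratio for Mmp12 and Ccl17 was 4.47. Arg1 and Mmp12 were together in 3 cells against 2.42.

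At 2000 UMIs per cell, the median alveolar macrophage-like cell showed 2 of the 8 genes in every library, in most cases Chil3 and Mrc1. A share of 11.8% showed 3 or more in Papain WT, against 0.864% to 2.37% in the other libraries. In Papain WT 3.26% showed 4, as did 1 cell of DPBS KO, and no cell showed more.

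The Papain WT cells with at least 2 UMIs of Arg1, 46 of 860, differed from the rest in the markers of their class. Siglecf was detected in 23.9% of them against 73.5% of the rest, Marco in 6.52% against 53.7%, Car4 in 52.2% against 84.8% and Ear2 in 95.7% against 96.8%. Rnase2a was in 47.8% against 8.11%, Ms4a7, an interstitial macrophage marker, in 39.1% against 13.02%, and C1qa in 8.70% against 0.74%. Cells with 2 or more UMIs of Ccl17, 63 in number, had Siglecf in 42.9% against 73.0%, Car4 in 85.7% against 82.8% and Rnase2a in 61.9% against 6.15%. The 86 such cells for Mmp12 had Siglecf in 45.3% against 73.6%. The Arg1 cells thus carried the alveolar markers Siglecf, Marco and Car4 less often than the rest, and the Ccl17 cells kept Car4. Median depth was 18742.5 to 19947 UMIs in these cells and 16872 to 16928 in the rest, and the part of depth and of other cell types was not tested.

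The alveolar macrophage-like cells fell into 7 sub-clusters, formed without the 8 genes. Papain WT was higher than DPBS WT by 2-fold or more for Chil3 in all 7, with log2 ratios of 1.17 to 1.94, for Mmp12 in all 7 (1.88 to 7.13) and for Ccl17 in all 7 (3.74 or more outside the Abca1 sub-cluster, and at least 8.46 in the Mcm5 sub-cluster, where DPBS WT had no UMI). Arg1 was so in 6 of 7. These sub-clusters were made on integrated libraries. Without integration the libraries separated in part, with a cluster led by Syngr1 and Fstl1 that held 173 cells of Papain WT and 3 of DPBS WT, and one led by Fbp1 and Rnase2a that held 159 and 14. The Syngr1 cluster held 35 cells of Papain KO and 1 of DPBS KO, and the Fbp1 cluster 4 and 79. Those 79 DPBS KO cells, without papain, had Chil3 at 57829 CPM, Mmp12 at 537 CPM and Ccl17 at 285 CPM. After papain, Chil3 in KO was 2-fold or more below WT in 6 of 7, with log2 ratios between -1.98 and -0.90. For Mrc1 no sub-cluster passed 2-fold in any of the 4 comparisons.

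Within Papain WT, Arg1 and Ccl17 were highest in different sub-clusters. Arg1 measured 129 CPM in the sub-cluster led by Apoe and Fstl1 and 3.44 CPM in that led by the replication genes Mcm5 and Mcm6. Ccl17 measured 22.0 CPM in the Apoe sub-cluster and 395 CPM in the Mcm5 sub-cluster. Mmp12 was highest, at 376 CPM, where Arg1 was highest, and Chil3 was highest, at 45862 CPM, in the sub-cluster led by the sterol synthesis genes Fdps and Sqle. The Apoe sub-cluster had the lowest Mrc1 of Papain WT, 457 CPM. It held 13.3% of the Papain WT class and 5.53% to 6.95% in the other libraries.

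**Figure D4:**
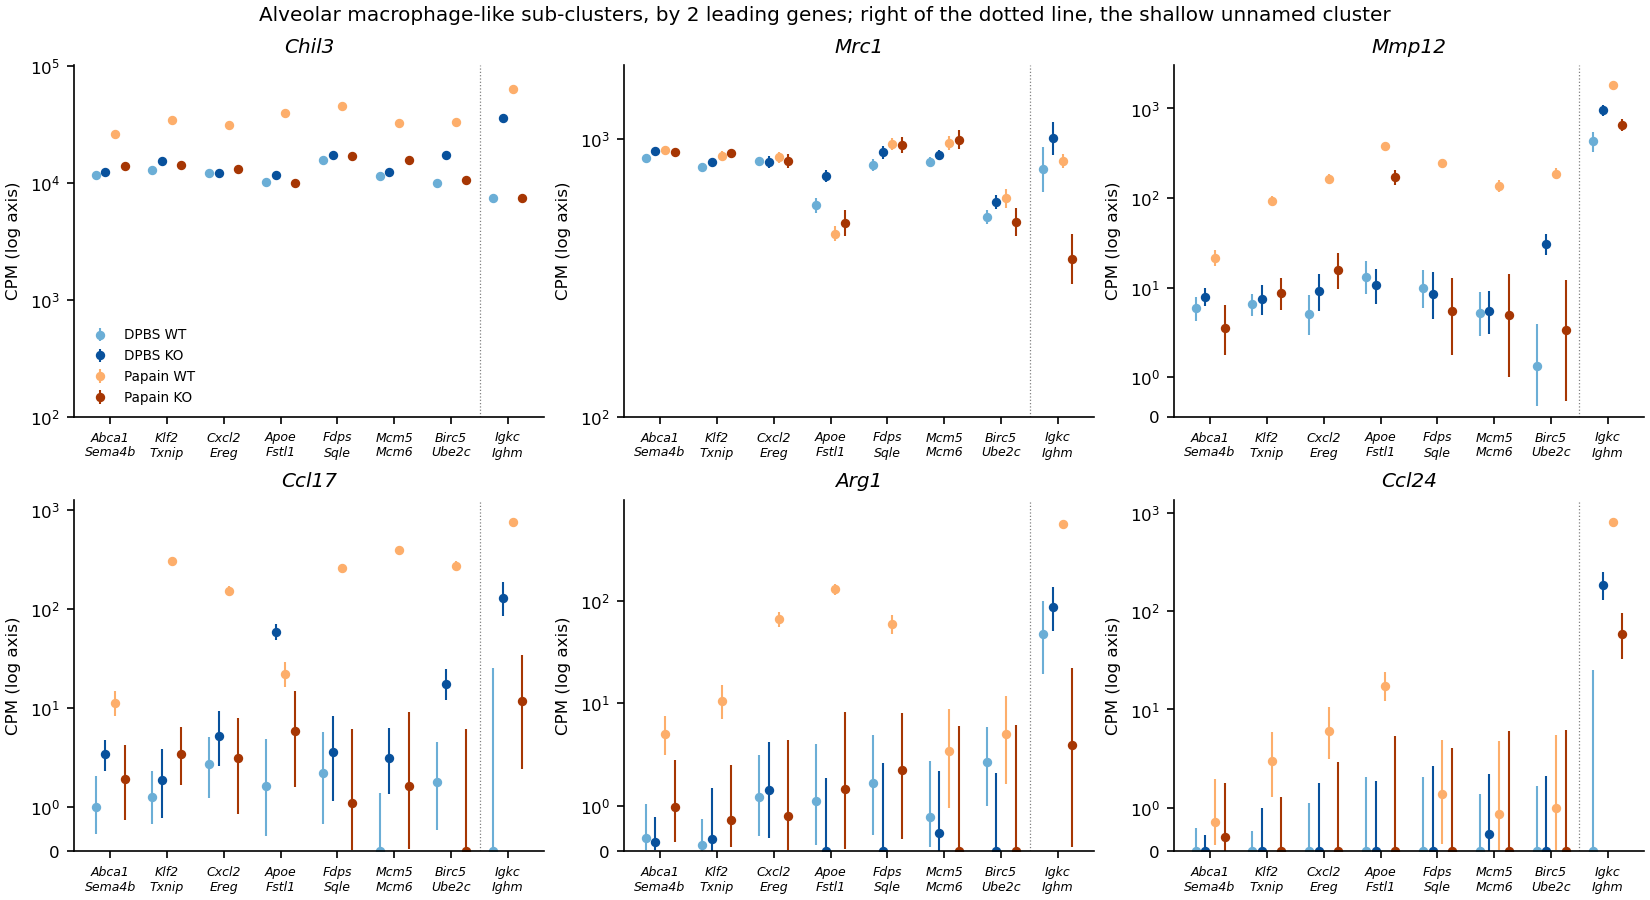
Levels of 6 of the genes (CPM, log axis, linear under 1 where the axis reaches 0) in the 7 alveolar macrophage-like sub-clusters, named by 2 leading genes, and, right of the dotted line, in the shallow cluster that stayed unnamed. Points are libraries with 95% Poisson intervals, and Papain WT (light orange) stands highest in each of the 7 for Chil3 and Mmp12 and, apart from the Apoe sub-cluster where DPBS KO is higher, for Ccl17.

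Interstitial macrophage-like cells, which carry C1q and live in the tissue, were fewer, with 37 in DPBS WT and 22 in DPBS KO, then 87 in WT and 57 in KO after papain. C1qa was detected in 77.0% to 86.5% of them, and their alveolar markers summed to 911 to 1781 CPM, highest in Papain WT. Retnla was their leading gene of the 8, at 7451.8 CPM in DPBS WT and 10464.3 in DPBS KO, then 4479.9 in WT and 2454.4 in KO after papain. Both papain libraries were lower, with log2 ratios of -0.73 in WT and -2.09 in KO, but only 21.1% to 40.2% of the cells held Retnla and the top cell gave 15.4% to 50.2% of it. In Papain WT the 31 cells with 2 or more Retnla UMIs had Ms4a7 in 12.9% against 51.8% of the rest and Ccr2 in 87.1% against 60.7%.

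Mmp12 in interstitial macrophage-like cells was 324 CPM in DPBS WT and 345 in DPBS KO, then 1164 in WT and 242 in KO after papain. Papain was above DPBS in WT by a log2 ratio of 1.85 and below it in KO by one of -0.52. Ccl24 was 21.6, 9.33, 333 and 96.6 CPM in the same order, so it was higher after papain in both genotypes. A single cell gave 61.2% of the Ccl24 UMIs of Papain KO. Ccl17 was 356, 71.5, 806 and 230 CPM, and Arg1 was 3.597, 3.11, 122 and 7.89 CPM, each highest in Papain WT. Chil3 was 52.2, 59.1, 2179 and 352 CPM, but 1 cell gave 60.8% of it in Papain WT and 69.8% in Papain KO.

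In these cells 7 of the 8 genes had enough UMIs for papain over DPBS in WT, and 5 were higher by 2-fold or more against 5.54% of 7163 genes. For papain over DPBS in KO, 3 of 6 were higher against 8.42% of 6220 genes. For KO over WT in papain, 5 of 7 were lower against 3.96% of 7675 genes. In Papain WT, Mmp12 and Ccl17 were detected together in 16 of 86 thinned cells against 9.28 by the product of their shares, whereas Ccl17 and Retnla were together in 4 against 6.41.

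Type 2 conventional DC-like cells (cDC2), which carry Cd209a and prime T helper cells, numbered 37 in DPBS WT and 39 in DPBS KO, then 93 in WT and 33 in KO after papain. Ccl17 was 603 CPM in DPBS WT and 1345 in DPBS KO, then 3133 in WT and 1110.2 in KO after papain. Papain WT was the highest, and DPBS WT rested on 1 cell for 52.3% of its UMIs. Ccl24 had 1928 UMIs in Papain WT, in 25 of 93 cells, and 0 in the other 3 libraries. The Papain WT level was 1320.2 CPM, at least 237-fold above DPBS WT, and 1 cell gave 32.0% of it. Arg1 had 76 UMIs in Papain WT and 0 elsewhere, and Mmp12 was 92.8, 27.8, 293 and 15.3 CPM.

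Of the 7 genes with enough UMIs in cDC2-like cells, 6 were 2-fold or more higher for papain over DPBS in WT against 6.87% of 7011 genes. For papain over DPBS in KO, 0 of 4 were higher against 5.79% of 5281 genes. For KO over WT in papain, 6 of 7 were lower against 6.78% of 7035 genes. The 20 Papain WT cells with 2 or more Ccl24 UMIs had Cd209a in 40.0% against 86.3% of the rest, Flt3 in 30.0% against 79.5%, C1qa in 30.0% against 5.48% and Ccr2 in 18 of the 20 against 58.9%. The defining cDC2 markers Cd209a and Flt3 were thus less frequent in the cells with Ccl24. The 13 alveolar markers summed to 1198 CPM in the Papain WT class and to 183 to 340.1 CPM in the other libraries, and their part in these values was not tested. Ccl24 was detected with Ccl17 in 15 thinned cells against 9.14 and with Mmp12 in 8 against 3.47.

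Other DC classes carried mainly Ccl17. Mature DC-like cells, which migrate to lymph nodes with Ccr7, had 2298 CPM in DPBS WT and 3265 in DPBS KO, then 3789 in WT and 3305 in KO after papain, from 9 to 50 cells. Their level differed little by library, with a log2 ratio of papain to DPBS of 0.72 in WT and 0.02 in KO. Ccl24 had 237 UMIs in the Papain WT mature DC-like cells and 0 in the other libraries. Type 1 conventional DC-like cells had Ccl17 at 405, 1143, 597 and 796 CPM. Here KO was above WT in both treatments, with 16.2% to 43.1% of the UMIs of a library from its top cell. Retnla in type 1 conventional DC-like cells had a mean of 158 CPM and ran from 0 to 511 CPM over the libraries.

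Monocytes, the blood precursors of part of the lung macrophages, held Chil3 and little of the other genes. Classical monocyte-like cells had Chil3 at 752 CPM in DPBS WT and 886 in DPBS KO, then 1317 in WT and 732 in KO after papain. The log2 ratio of papain to DPBS was 0.81 in WT and -0.28 in KO, and Chil3 was detected in 74.3% to 86.3% of the cells. In nonclassical monocyte-like cells it was 159, 138, 204 and 137 CPM. B-like cells, which should lack Chil3, had 66.7, 83.9, 104 and 43.5 CPM, with a UMI in 21.9% to 42.4% of cells. Arg1, Ccl24, Mmp12 and Ccl17 each stayed at or below 4.04 CPM in both monocyte classes, while Mrc1 reached 10.3 CPM and Retnla 22.1 CPM.

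ILC2-like cells, which respond to alarmins with IL-5 and IL-13, had the highest Arg1 of the classes compared. It was 464 CPM in DPBS WT and 308 in DPBS KO, then 955 in WT and 442 in KO after papain, from 50 to 83 cells. Papain was above DPBS by a log2 ratio of 1.04 (interval 0.78 to 1.31) in WT and 0.52 (interval 0.15 to 0.90) in KO. Arg1 was detected in 67.1% to 75.9% of these cells, a narrow range. Il13 measured 21.8, 101.5, 450 and 222 CPM in them and Il4 17.5 to 30.8 CPM, while Il13 was at 0 to 0.79 CPM in macrophage-like cells.

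Among the 9 classes with at least 30 cells in each library, which leave out interstitial macrophage-like, mature DC-like and type 1 DC-like cells, Chil3, Mrc1 and Chil4 had their highest mean level in alveolar macrophage-like cells, 3 of the 8 genes. For Chil3 and Mrc1 the range over libraries did not overlap that of the next class, classical monocyte-like and cDC2-like cells respectively. Arg1 was highest in ILC2-like cells, with no overlap with the next class. Ccl17, Mmp12, Ccl24 and Retnla were highest in cDC2-like cells, and of these only Ccl17 did not overlap the next. The Ccl24 mean rested on Papain WT alone. The Retnla mean in cDC2-like cells was only 30.2 CPM, with libraries from 0 to 119 CPM. With no doublet removal, without integration and with classes from per-cell marker UMIs, Ccl24, Mmp12 and Retnla were highest in interstitial macrophage-like cells. Chil4, at a mean of only 0.40 CPM in alveolar macrophage-like cells, was highest in interstitial macrophage-like cells without integration. With per-cell marker classes, Chil4 and Ccl17 were highest in type 1 DC-like cells and Mrc1 in eosinophil-like cells. Once classes with at least 20 cells were let in, interstitial macrophage-like cells were highest for Mmp12 and Retnla, and Ccl17 in cDC2-like cells overlapped the next class.

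Genes with the most similar pattern over the 43 sums of class and library with at least 30 cells were taken from 6035 genes that reached 50 CPM. The Pearson correlations of log2(CPM + 1) are a description, since sums of 1 library share its depth and the classes share markers. Ccl17 was most like Dcstamp (0.96), Arhgap22 (0.95) and Gatm (0.92), and Chil3 was most like Tfec (0.91), F7 and Fam189a2 (both 0.86). Retnla was most like C1qa (0.84), Fcna (0.84) and C1qc (0.83), and Mrc1 most like Hr, Rab3il1 and Fcor (0.88 each). Ccl24 was most like H2-M2 (0.91), Rnase2a (0.82) and Timp1 (0.78), Mmp12 most like Timp1 (0.90), Dab2 and Hr (both 0.85), and Arg1 most like Prnp, Grin2d and Ptpn13 (0.84 each). Chil4 did not reach 50 CPM. Between the 8 genes themselves, Mmp12 and Ccl17 had 0.80, Chil3 and Mrc1 0.70, and Chil3 and Ccl17 0.03.

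The counts of pathway genes that follow are for alveolar macrophage-like cells and stand against the same shares of all genes. These were 3.21% higher and 1.51% lower for papain in WT, 1.65% and 1.43% for papain in KO, 0.855% and 0.897% for KO over WT in DPBS, and 1.15% and 2.63% for KO over WT after papain. The receptor and signalling genes of the pathway did not differ by 2-fold in alveolar macrophage-like cells. Of 9 such genes measured, 0 passed 2-fold in any of the 4 comparisons. Il4ra, the receptor chain, was 70.9 CPM in DPBS WT and 68.8 in DPBS KO, then 71.0 in WT and 74.9 in KO after papain, Stat6 lay between 80.6 and 89.7 CPM, and the kinase Jak1 between 126 and 140.2 CPM. Among 5 transcription factors 1, Irf4, was higher for papain in WT, at 2.51, 2.71, 9.72 and 4.56 CPM. Cebpb, Klf4 and Kdm6b did not pass 2-fold. The chemokine receptors Ccr3 and Ccr4 were at the floor in these cells, and Ccr4 measured 10.5 to 21.8 CPM in ILC2-like cells.

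Of 5 arginine genes tested for papain in WT, 1 was higher, and the same gene, Ass1, which makes argininosuccinate, was also higher in KO (log2 ratios 1.70 and 1.65). The arginine transporter Slc7a2 was 246, 299, 407 and 284 CPM. Slc7a1 and Odc1 did not pass 2-fold. Nos2, which competes with arginase for arginine in classical activation, had no UMI in these cells. Of 4 lectins and scavenger receptors tested for papain in WT, 3 were higher, Mgl2 (log2 ratio 5.56), Clec10a (3.23) and Msr1 (1.53), and all 3 were lower in Papain KO than in Papain WT. Mgl2, a galactose-binding lectin, had 0.15, 0.17, 7.04 and 0.10 CPM, and Cd36 did not pass 2-fold.

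Among 2 chitinase and resistin relatives tested, Retnlg, a neutrophil gene, was higher for papain in both genotypes (2.12 and 2.20), and Retn was lower in KO (-2.16). Chil1, with 18 UMIs in alveolar macrophage-like cells, had too few to be tested. Of 5 chemokines tested, 1, Ccl7, was higher for papain in WT and lower in Papain KO than in Papain WT, while the abundant Ccl6 was 4716, 4751, 5911 and 4245 CPM, and Ccl9 and Ccl2 did not pass 2-fold. Of 5 proteases and inhibitors, 3 were higher for papain in WT, Mmp14 (3.22 CPM in Papain WT against 0.37 in DPBS WT), Timp1 (2.57) and Timp2 (1.13), and in KO Mmp14 was higher (1.39) and Timp1 lower (-1.44). Mmp19 (0.28 in WT and 0.14 in KO) and Mmp8 (-0.04 in WT and 0.45 in KO) did not pass 2-fold. Of 6 other targets of IL-4 and IL-13, Igf1 was higher (1.66), and the matrix protein Fn1 (0.92 in WT and 0.71 in KO), Plin2 and Tgm2 did not pass 2-fold.

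Of the ligand genes only Csf1 could be tested in all 4 comparisons, and it was higher for papain in WT (1.98). Il33 and Csf2, with 10 and 26 UMIs in alveolar macrophage-like cells, had too few UMIs in each comparison. Genes of classical activation also moved with papain in these cells. Of 6 tested, 4 were higher in WT against 3.21% of all genes and 3 in KO against 1.65%, with Il1b at 221, 114, 658 and 383 CPM and Il6 at 17.8, 13.3, 98.9 and 49.9 CPM in the same order of libraries. Both were thus 2-fold or more higher after papain in each genotype. Cxcl9 (log2 ratios 2.49 in WT and 0.09 in KO) and Ptgs2 (3.04 and 0.69) passed 2-fold in WT only, and Cxcl10 (0.71 and 1.80) in KO only. Tnf (0.41 and 0.78) passed 2-fold in neither genotype. The difference between genotypes was not tested.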

How the data were processed

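Counts were deposited by the authors as UMI counts per gene and cell barcode, already limited to called cells. The labels name Cell Ranger and the mm10 build, the matrix headers give version 3.1.0, and the annotation is not given in the sources used here. Positions came from GENCODE on GRCm38.

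Barcodes with more than 200 genes and under 15% mitochondrial UMIs were kept, and the 267 to 557 barcodes per library with the highest Scrublet scores (run through scanpy 1.11.5) were removed, in proportion to the number of barcodes. Python 3.11.15 was used, with scipy 1.17.1 and pandas 2.3.3. Canonical correlation in Seurat 5.3.0, under R 4.3.3, put the libraries together on 2000 variable genes, Louvain clusters were made at resolution 0.8 on 30 dimensions, and myeloid cells were clustered again. The 8 genes, pathway genes and close paralogs were kept out of the clustering genes. Clusters took the best-scoring class of a marker list. They stayed unnamed where the score was below 1, where a second class came close, or where the score was below 1.5 and no own marker led. This naming rule was set after clusters had been seen.

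UMIs were summed per class and library as CPM with exact Poisson intervals, shares have exact Clopper-Pearson intervals, and ratios have exact conditional binomial intervals. A count of 0 allows an alveolar macrophage-like share of up to 0.216% to 0.593%, taken as 3 counts. Scripts were tested on simulated data. Promoter windows and paralogs were compared with Biopython 1.88.

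The members and all lists were chosen with earlier results of these data known. Named genes were the 8 members, the 3 genes of each pathway list with the most UMIs in alveolar macrophage-like cells with any past 2-fold in both genotypes or both treatments, and the 3 genes most like each member. Irf4, Clec10a, Ccl7, Timp1, Igf1, Il4, Il13, Nos2, Cxcl9, Cxcl10 and Ptgs2 were named after their values were seen. Of the lists, Clec7a and Ear11 were not analysed here. Alternatives numbered 11 planned and 4 added after seeing the data, including scaling by edgeR 4.0.16 TMM factors.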

Additional observations from a re-analysis of the deposited data

Results flagged for a closer look

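The direction of the papain ratio was opposite in WT and KO for 6 combinations of gene and class, with both counting intervals clear of 0, and the difference was not tested because each group is 1 library. In alveolar macrophage-like cells these were Ccl17, with a log2 ratio of 6.81 in WT and -1.82 in KO, and Retnla, with 4.24 and -1.38. The Ccl17 ratio in KO was 0.39 with no doublet removal and -0.41 without the top 1% of cells, and Retnla in DPBS WT and Papain KO was below its level in B-like cells. In interstitial macrophage-like cells Mmp12 had 1.85 and -0.52. In cDC2-like cells Ccl17 had 2.38 and -0.28, and Mrc1 had 0.79 and -0.76. In classical monocyte-like cells Chil3 had 0.81 and -0.28.

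A signal outside the compared classes came from a shallow unnamed cluster of 284 cells, 25 and 65 from WT and KO after DPBS and 174 and 20 after papain, with a median of 2849.5 UMIs per cell. In Papain WT it held Chil3 at 62969 CPM, Mmp12 at 1826 CPM, Ccl24 at 814 CPM, Ccl17 at 745 CPM, Arg1 at 563 CPM and Retnla at 209.6 CPM. In DPBS WT the same cluster had 7417 CPM of Chil3, 428 of Mmp12, 47.5 of Arg1, 102 of Retnla and no UMI of Ccl24 or Ccl17. In DPBS KO, also without papain, it had 35715 CPM of Chil3, 962 of Mmp12, 186 of Ccl24, 129 of Ccl17, 85.7 of Arg1 and 61.9 of Retnla, and in Papain KO Chil3 was 7371 CPM. The log2 ratio of Papain KO to Papain WT in this cluster was -3.09 for Chil3, -1.47 for Mmp12 and -3.79 for Ccl24. It was -5.99 for Ccl17, -7.17 for Arg1 and at most -4.16 for Retnla. Against the alveolar macrophage-like sub-clusters this cluster was led by Igkc and Ighm, immunoglobulin genes of B and plasma cells. The part of free RNA, doublets and low depth in these levels was not tested.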

How the results depend on the processing

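No paired analysis was possible because each group holds 1 library and no result comes from a test. There was no replicate to leave out. Of 319 log2 ratios recomputed, 215 stayed within the counting interval of the reported ratio and 100 left it. The other 4 belonged to ratios past 2-fold and changed sign. Sign changes of ratios under 2-fold were not counted apart. Mmp12 for papain over DPBS in KO, for example, ran from -0.60 to 1.41 over the settings. Of 223 recomputed values for the 19 ratios past 2-fold, 213 stayed past it in the same direction. The 4 of these that changed sign were Ccl17 for papain over DPBS in KO with no doublet removal (0.39) and Arg1 for KO over WT in DPBS. Arg1 was at 0.46 without integration, 0.087 with the shallow cluster counted in and 0.46 without integration with its papain cluster counted in. Without the 1% of cells with the most UMIs of a gene, the count for papain over DPBS in WT was 4 in place of 7, and that for KO over WT in papain also 4 in place of 7, as Ccl24, Chil4 and Retnla then had under 20 UMIs. For papain in WT the log2 ratios of the 7 genes were at 1.37 or more in every setting that gave one. The count higher for papain over DPBS in KO was 1 in place of 0 with no doublet removal, with classes from per-cell marker UMIs, with the mean of per-cell CPM, with cells thinned to 2000 UMIs and with equal weight to each sub-cluster. The count lower there was 1 in place of 2 with no doublet removal, with a mitochondrial share under 10% and with the B-like level subtracted, 4 without integration, and 0 without the top 1% or when thinned. For KO over WT in DPBS the count higher was 4 in place of 2 without integration, with or without its papain cluster, and with the shallow cluster counted in, 1 without the top 1% and 0 when thinned. The count lower was 0 in place of 1 in those 5 settings and with classes from per-cell marker UMIs. With those classes, 1 gene in place of 3 was highest in alveolar macrophage-like cells. The cause of the other moves was not tested. The count of pairs detected together was 0 in each setting run, which says nothing of stability, since the 3 usable pairs as reported could not have reached 1.5 times the product of their shares. Sums of UMIs under 20, as for Ccl24 and Chil4, limit what can be said of these genes outside Papain WT.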
